A study of Mus musculus with 2 samples.

Results

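The genes described here handle cholesterol in the adrenal gland after it is made or taken up: they import it, free it from the lysosome, store it as ester, release it again and export it. The 10 members were chosen by name as Scarb1, Lipa, Npc1, Npc2, Soat1, Lipe, Nceh1, Abca1, Abcg1 and Apoe, and all 10 were found among the 55536 genes measured. Whole adrenal tissue came from 2 adult female mice of the B6CASTF1/J strain, a cross of C57BL/6J with CAST/Ei, and total RNA-seq was run on 1 library from each. Both mice were 8 to 10 months old, the labels name no treatment, and each library was made from 300 ng of RNA. The animal numbers in the labels are 1 for replicate 1 and 3 for replicate 2. They form 1 group, so the data give levels and the difference between animals, and no test between conditions is possible. The labels give both libraries the same donor code beside separate animal numbers, so the spread between them may in part be technical.

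The cortex of the gland makes steroid hormones from cholesterol and keeps a reserve of it as cholesteryl ester in lipid droplets. Rodent cortical cells take most of that cholesterol from high-density lipoprotein by selective uptake, in which the receptor SR-BI passes the ester into the cell without taking in the particle. Ester that arrives inside whole lipoprotein particles is instead cleaved in the lysosome, and 2 sterol-binding proteins hand the product to the rest of the cell. Free cholesterol is esterified again in the endoplasmic reticulum, neutral hydrolases release it from droplets when hormone is needed, and ABC transporters export what remains.

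Some results below turn on transcripts that differ by a short stretch of sequence, which is given here from the mm10 genome with the GENCODE M21 annotation, in lower case with the part that differs in capitals. Scarb1-201 and Scarb1-202 encode the receptor forms known as SR-BI and SR-BII. They share 467 codons and then differ, because Scarb1-202 skips an exon of 129 bases (chromosome 5, 125281105 to 125281233, minus strand). In both lines the capitals mark the coding bases after the last shared base, with the stop codon. They give 42 codons of its own to Scarb1-201 and 39 to Scarb1-202, both of which encode the C-terminal tail inside the cell.
Scarb1-201: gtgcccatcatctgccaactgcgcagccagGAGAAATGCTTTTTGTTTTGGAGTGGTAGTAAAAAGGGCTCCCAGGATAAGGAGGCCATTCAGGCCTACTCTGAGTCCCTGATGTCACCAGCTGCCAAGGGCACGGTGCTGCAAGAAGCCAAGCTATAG
Scarb1-202: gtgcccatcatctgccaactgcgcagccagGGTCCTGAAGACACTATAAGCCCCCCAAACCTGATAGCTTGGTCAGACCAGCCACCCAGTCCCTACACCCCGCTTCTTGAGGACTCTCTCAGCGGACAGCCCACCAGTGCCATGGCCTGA

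Lipe-201 starts translation upstream of Lipe-202. Its extra 129 coding bases, 43 codons, are in capitals and stand ahead of the start codon of Lipe-202, which is in capitals in the line below it.
Lipe-201: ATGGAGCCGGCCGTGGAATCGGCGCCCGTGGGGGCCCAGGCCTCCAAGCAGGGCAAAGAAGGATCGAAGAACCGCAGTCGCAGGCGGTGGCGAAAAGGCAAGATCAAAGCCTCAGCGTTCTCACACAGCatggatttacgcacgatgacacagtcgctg
Lipe-202: ATGgatttacgcacgatgacacagtcgctg

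Lipa-201 and Lipa-202 encode the same protein and differ by 4 bases at a splice junction directly ahead of the start codon. Those bases are in capitals and are absent from Lipa-202.
Lipa-201: cactcccgGAAGatgcaactccagggc
Lipa-202: cactcccgatgcaactccagggc

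Levels are in TPM, a unit corrected for transcript length and library size, and errors are the SD over the 2 animals (n = 2). The genes spanned a wide range, from Scarb1 at 843 ± 24.5 TPM to Abcg1 at 4.80 ± 1.10 TPM, and 9 of the 10 stood at 10 TPM or more in both animals. The members' median was 88.4 TPM, against 11.8 TPM for protein-coding genes at 1 TPM or more in both animals. The members were chosen with earlier results of these data known, so this contrast may reflect the choice. From high to low the order was Scarb1, Soat1, Apoe, Nceh1, Lipa, Lipe, Abca1, Npc1, Npc2 and Abcg1. Only Lipe and Abca1 were neighbours whose animals overlapped. In a separate transcript table, made by matching reads to a transcript index without alignment, the animals of Nceh1 and Lipa overlapped too, so those neighbours are not ordered either. TPM was scaled over all RNAs. Rescaled over nuclear protein-coding genes, Scarb1 stood at 2368 ± 89.2 and Abcg1 at 13.5 TPM, with the order kept.

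**Figure D1:**
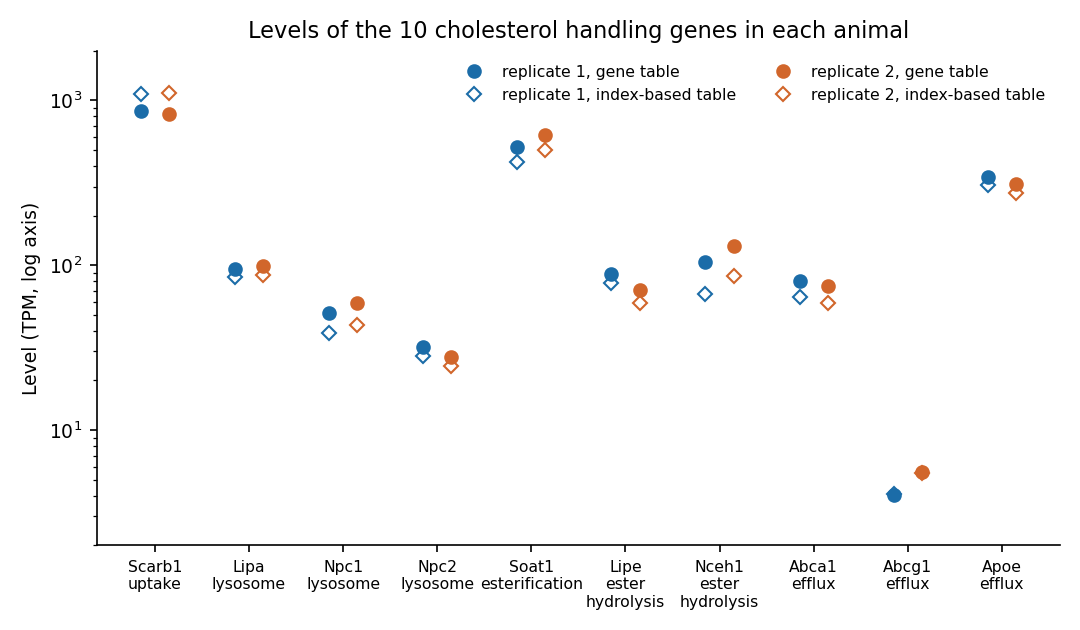
Level of each gene in TPM on a log axis, by role. Filled circles are the alignment-based gene table and open diamonds the index-based table, in blue for replicate 1 and orange for replicate 2. Scarb1 lies highest and Abcg1 lowest in both tables and both animals.

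Uptake was led by Scarb1 (ENSMUSG00000037936.15, mm10 chromosome 5, 125277087 to 125341094, minus strand), which encodes the high-density lipoprotein receptor. It stood at 860 and 826 TPM in replicates 1 and 2, from 80012 and 64883 expected counts. That placed it 16th and 15th among the nuclear protein-coding genes at 1 TPM or more in each animal, of which there were 12207 and 12354. Lrp1, an endocytic receptor that also binds apolipoprotein E, stood at 79.5 ± 1.73 TPM, and the ratio of Scarb1 to it was 10.6 ± 0.538 and, in the index-based table, 21.2 ± 0.412. Scarb1 was thus well above Lrp1 in both animals, by a factor that depends on the table.

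Of the 18 other genes of lipoprotein uptake listed, 12 reached 1 TPM and 6 reached 10 TPM in both animals. Cd36, a scavenger receptor for fatty acids and lipoproteins, was the highest at 174 ± 28.9 TPM. Lpl, the lipase that cleaves triglyceride in circulating lipoproteins and is abundant in fat, was second by the mean, with 126 TPM in replicate 1 against 62.9 TPM in replicate 2, where Lrp1 was above it.

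The lysosomal genes were moderately abundant and stood in a graded order. Lipa (chromosome 19, 34492318 to 34527474, minus strand), the acid lipase that cleaves cholesteryl ester in the lysosome, stood at 95.5 and 98.7 TPM. Npc1 (chromosome 18, 12189692 to 12236400, minus strand), the membrane protein that exports the freed sterol, stood at 51.6 and 58.7 TPM. Npc2 (chromosome 12, 84754562 to 84773152, minus strand), the soluble carrier that passes sterol to it, stood at 31.8 and 27.9 TPM. The animals did not overlap between any of these genes. Lipa was 1.77 ± 0.119 times Npc1 within a library, and Npc1 was 1.62 times Npc2 in replicate 1 and 2.10 times in replicate 2. The 3′ end of Npc1 overlaps Rmc1 on the opposite strand, which had 1877 and 1884 counts. No source used here says if reads were counted by strand, so reads in that overlap are uncertain.

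Of 18 other genes of sterol export from lysosomes and endosomes, 16 reached 1 TPM and 14 reached 10 TPM in both animals. Gramd1b, which carries cholesterol from the plasma membrane to the endoplasmic reticulum, was the highest at 307 ± 16.7 TPM and exceeded all 3 lysosomal members in both animals. The lysosomal membrane protein gene Lamp1 stood at 165 ± 10.7 TPM and Rab7, a small GTPase of late endosomes, at 133 ± 2.18 TPM. Stard3, which tethers late endosomes and moves sterol there, stood at 9.07 ± 0.460 TPM.

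Of the genes that esterify cholesterol, only Soat1 was abundant. Soat1 (chromosome 1, 156424525 to 156474331, minus strand), which encodes the enzyme ACAT1 that esterifies cholesterol in the endoplasmic reticulum, stood at 523 and 618 TPM, from 49174 and 47169 counts. Soat2, its counterpart in liver and intestine, had 6 counts in each animal, or 0.07 and 0.09 TPM. Lcat, which esterifies cholesterol in plasma, had 19 and 18 counts, or 0.39 and 0.44 TPM. By the TPM of the whole gene, Soat1 was the second most abundant member in both tables.

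The ester hydrolases were lower than the esterifying enzyme. Nceh1 (chromosome 3, 27182965 to 27284608, plus strand), a neutral cholesteryl ester hydrolase of the endoplasmic reticulum, stood at 105 and 132 TPM. Lipe (chromosome 7, 25379527 to 25398710, minus strand), the hormone-sensitive lipase that acts on droplet esters in the adrenal and on triglyceride breakdown products in fat, stood at 88.8 and 70.7 TPM. Soat1 was 4.84 ± 0.197 times Nceh1 within a library, and was 5.89 times Lipe in replicate 1 and 8.75 times in replicate 2. Over transcripts with the complete coding region alone, Soat1 was 3.38 ± 0.275 times Nceh1, and 3.34 and 4.77 times Lipe. The ratio of Nceh1 to Lipe was 1.18 in replicate 1 and 1.86 in replicate 2. By the index-based table it was 0.855 and 1.46, so which hydrolase gene was higher in replicate 1 depends on the table. Over complete coding transcripts Lipe was the higher in replicate 1 in both tables, with ratios of 0.934 and 0.946, and Nceh1 the higher in replicate 2.

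Of 24 other genes of ester storage and lipid droplets, 18 reached 1 TPM and 15 reached 10 TPM in both animals. Plin2, the droplet coat protein found in most tissues, was the highest by the mean at 157 ± 23.8 TPM, with 174 and 141 TPM in the animals. Pnpla2, the triglyceride lipase of droplets, stood at 183 and 114 TPM, above Plin2 in replicate 1, and Dgat2, which makes triglyceride, at 141 ± 13.3 TPM. Plin2 and Dgat2 were below Soat1 by more than their spread, as was Pnpla2.

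The efflux genes differed widely in level. Apoe (chromosome 7, 19696109 to 19699188, minus strand), the apolipoprotein that takes up exported cholesterol, stood at 343 and 311 TPM. Abca1 (chromosome 4, 53030787 to 53159895, minus strand), the transporter that loads cholesterol onto lipid-poor apolipoproteins, stood at 80.2 and 75.1 TPM. Abcg1 (chromosome 17, 31057675 to 31117988, plus strand), which moves cholesterol toward high-density lipoprotein, stood at 4.02 and 5.58 TPM from 710 and 619 counts. Abca1 was thus 20.0 times Abcg1 in replicate 1 and 13.5 times in replicate 2, and the index-based table gave 15.6 and 10.8. Over transcripts with the complete coding region alone, Abca1 was 26.1 ± 0.262 times Abcg1, with 26.3 and 25.9 in the animals. No animal of 1 of these genes overlapped with those of another.

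Of 24 other genes of efflux and of the liver X receptor pathway, which switches on Abca1 and Abcg1 when sterol is plentiful, 19 reached 1 TPM and 12 reached 10 TPM in both animals. Apoc1, an apolipoprotein gene beside Apoe, was the highest at 173 ± 26.0 TPM, followed by the corepressor gene Ncor1 at 72.0 ± 3.18 TPM and the lipogenic factor Srebf1 at 65.4 ± 9.22 TPM. Of the receptors themselves, Nr1h2 (LXR-beta) stood at 35.8 ± 4.74 TPM and Nr1h3 (LXR-alpha) at 7.28 and 5.20 TPM. Nr1h2 was 4.46 times Nr1h3 in replicate 1 and 7.54 times in replicate 2.

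A gene's TPM adds up all its annotated transcripts, and the 10 genes have 66 of these. Some hold the complete coding region and others are short fragments, so the level was also taken over transcripts with a complete coding region of at least 70% of the gene's longest. In the alignment-based table the largest drop in TPM was that of Soat1, from 571 ± 67.5 TPM for the gene to 302 ± 20.1 TPM for its coding transcripts Soat1-201 and Soat1-207. These still held 92.0% and 90.7% of the gene's counts in replicates 1 and 2, so the drop in TPM rests on few reads. The index-based table gave the largest drop to Scarb1, from 1099 ± 3.88 to 644 ± 49.1 TPM. In the alignment-based table Apoe, at 323 ± 24.7 TPM, then ranked above Soat1, although their animals overlapped (341 and 306 TPM against 287 and 316 TPM). Nceh1 moved from 118 ± 18.8 to 89.8 ± 13.2 TPM and by the mean stood below Lipa, at 95.2 ± 1.49 TPM, with overlapping animals (80.4 and 99.1 TPM against 94.1 and 96.2 TPM). Lipe (76.2 ± 14.0 TPM) likewise passed below Abca1 (76.9 ± 3.91 TPM), with overlapping animals. Scarb1 stayed highest at 807 ± 52.8 TPM and Abcg1 lowest at 2.94 ± 0.120 TPM. The index-based table gave the same order of the 10 genes by coding transcripts as the alignment-based table, whereas by whole genes Lipa and Nceh1 changed places between the tables. By coding transcripts in the index-based table, Apoe (305 and 273 TPM) and Soat1 (216 and 236 TPM) had animals without overlap. The same was true there of Lipa (80.6 and 80.8 TPM) and Nceh1 (65.6 and 80.0 TPM), while Lipe and Abca1 still overlapped.

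**Figure D2:**
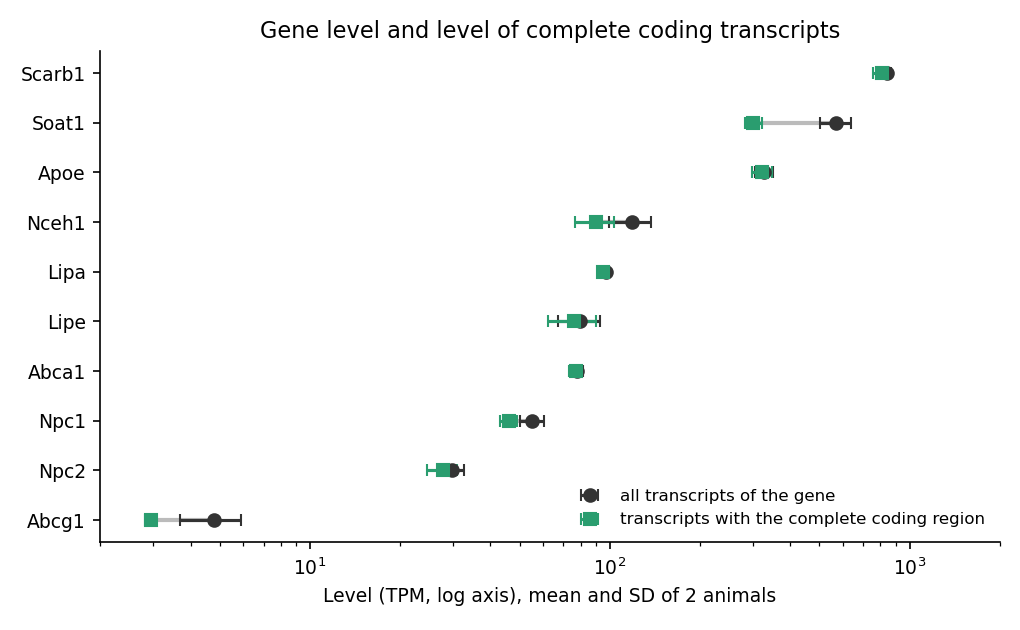
Mean level in TPM on a log axis, with the SD of 2 animals, for all transcripts of each gene (circles) and for transcripts with the complete coding region (squares). The pairs lie close together for most genes, while Soat1 drops from 571 to 302 TPM. Its coding transcripts still held 92.0% and 90.7% of its counts in replicates 1 and 2.

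The most abundant transcript was the same in both tables for 9 of the 10 genes, although the share it held often was not. Scarb1-201 held 90.9% and 84.9% of the gene's TPM in the alignment-based table, but 52.1% and 40.6% in the index-based table. There, Scarb1-204 and Scarb1-206, short transcripts of 469 and 638 bases with no coding region, held 39.6% ± 2.57 together. Scarb1-204 was at 4.67 and 6.13 TPM in the alignment-based table and at 304 and 327 TPM in the index-based table. The level of Scarb1 as a whole, and its ratio to Lrp1, carry this difference.

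Among the receptor forms shown above, SR-BI was the main one by estimated level. Scarb1-202 has 0 bases and 0 splice junctions that no other Scarb1 transcript holds, and Scarb1-201 has 25 such bases and 0 such junctions. The counts and shares of Scarb1-202, and their difference between animals, thus rest on how reads were divided among transcripts. Those of Scarb1-201 largely do too. Scarb1-202, the SR-BII form, had 5484 and 5115 counts against 73669 and 56135 for Scarb1-201. It made up 7.36% and 8.87% of the TPM of the pair in the alignment-based table, and 15.8% and 26.6% in the index-based table. In both tables Scarb1-201 held the larger share in both animals, and the share of Scarb1-202 was the larger in replicate 2.

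Soat1 was spread over several transcripts. Soat1-201 held 42.6% and 39.1% of the gene's TPM and Soat1-207 held 12.3% and 11.9%. Both encode the same 540 codons but differ after the stop codon, where Soat1-201 has 1266 bases and Soat1-207 has 6534. Since the longer molecule yields more reads, Soat1-207 took 42.2% and 42.8% of the gene's counts, close to the 49.8% and 47.9% of Soat1-201. Of the pair's molecules, estimated as TPM, Soat1-207 made up 22.9% ± 0.664 in the alignment-based table and 29.0% ± 0.964 in the index-based table. The short transcripts Soat1-203 (509 bases, a retained intron) and Soat1-206 (366 bases, coding region incomplete) held 37.4% ± 0.229 of TPM between them from 5.80% ± 0.224 of the counts. In the index-based table Soat1-203 held only 3.37% and 4.28%. There the share lay instead with Soat1-204, at 17.8% and 17.7%, and Soat1-205, at 23.4% and 24.7%.

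Lipe was mainly expressed from transcripts for the 759-codon protein. Lipe-202 held 68.8% and 67.3% of TPM and Lipe-208, which starts further downstream and has the same codons, 14.8% and 11.1%. Lipe-201, whose upstream start adds the 43 codons shown above, held 13.4% and 15.2%, and 14.1% and 16.6% by the index. Lipe-204, which encodes the longest protein of the gene at 1072 codons, had 0 counts in replicate 1 and 7.99 in replicate 2. The antisense gene 4732471J01Rik spans Lipe and had 119 and 134 counts in all, few beside the 9308 and 6128 counts of Lipe.

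Lipa was the gene whose main transcript depended on the table. Lipa-201 held 88.8% and 85.5% of TPM in the alignment-based table. In the index-based table Lipa-202, which lacks the 4 bases shown above, held 69.8% and 61.5%. Both encode the same 397 codons, so the level of coding transcripts differed less, at 95.2 ± 1.49 and 80.7 ± 0.116 TPM.

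The other genes had 1 main coding transcript. Abca1-201 held 99.4% and 98.7% of TPM and Npc2-201 94.6% and 91.4%. Apoe-209 held 87.6% and 85.2%, and Apoe-205, which encodes the same 311 codons, held 0.178% and 1.21% in the alignment-based table against 19.3% and 17.1% in the index-based table. Npc1-201 held 85.3% and 82.0%, beside the retained-intron transcript Npc1-206 at 11.8% and 14.1%. Nceh1-201 held 76.6% and 75.4%, beside the retained-intron transcript Nceh1-203 of 669 bases at 22.7% and 23.9%. Npc1-206 and Nceh1-203 held between 0.687% and 2.67% in the index-based table. For Npc2 the tables differed the other way, with the retained-intron transcript Npc2-203 at 2.99% and 5.05% in the first and 17.5% and 23.7% in the second.

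Abcg1 carried its difference in TPM between animals in a fragment, while its TMM-scaled counts gave a log2 ratio of only -0.05. Abcg1-201, the complete transcript, stood at 3.03 and 2.86 TPM from 676 and 542 counts. Abcg1-204, of 912 bases with an incomplete coding region, stood at 0.77 and 2.44 TPM, from 24.4 and 65.5 counts, and at 0.576 and 1.94 TPM in the index-based table. The gene's TPM was therefore higher in replicate 2 while its complete transcript was not. Abcg1-203, of 644 bases with an incomplete coding region, differed between the tables. It held 17.5% and 15.5% of the gene's TPM in the index-based table and had 0 counts in the alignment-based table.

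**Figure D3:**
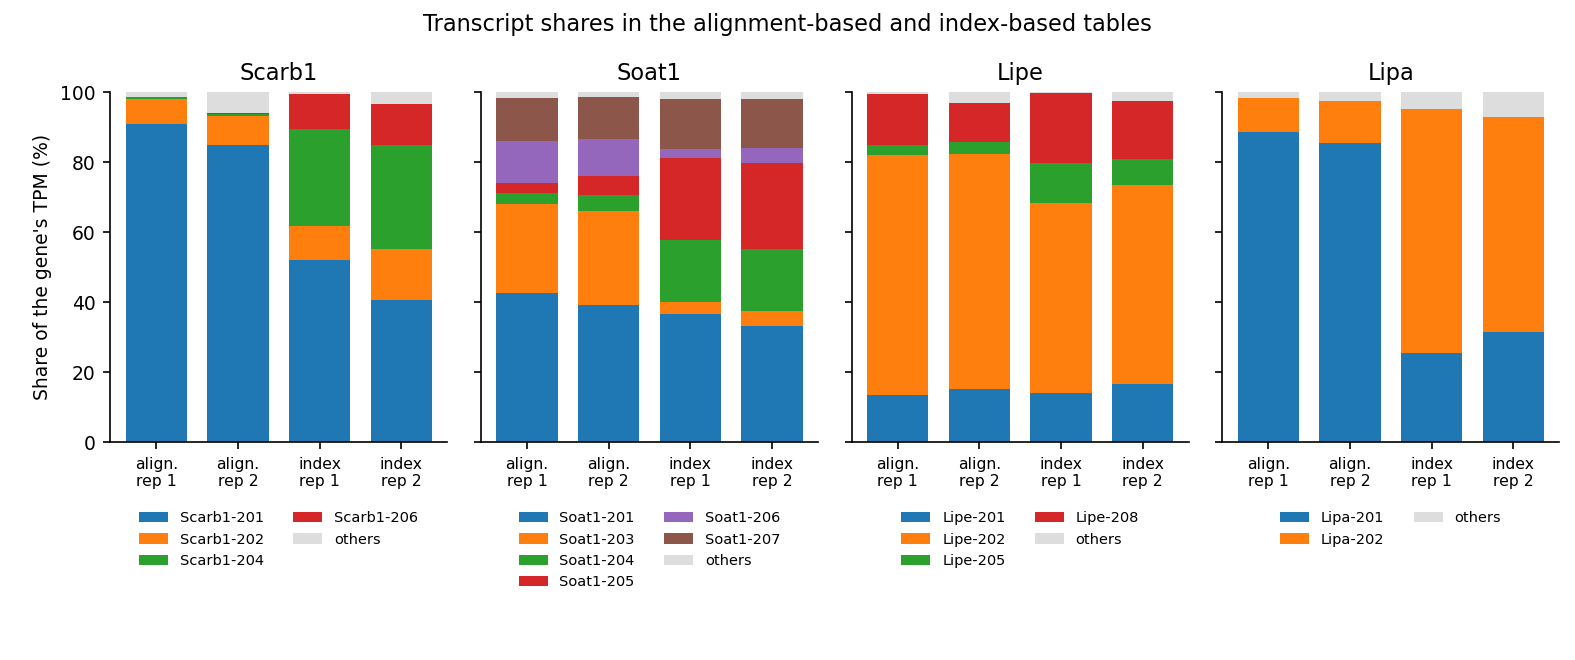
Share of the gene's TPM held by each transcript with 5% or more in any library, for Scarb1, Soat1, Lipe and Lipa, in the alignment-based and index-based tables of each animal. The animals resemble each other within a table. Scarb1-201 holds 90.9% and 84.9% in the first table and 52.1% and 40.6% in the second.

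Between the animals, no member differed by 2-fold. Ratios were taken as replicate 2 over replicate 1 of counts scaled by TMM, with 0.5 added, and have no replicate check. Of 12645 genes with a mean of 100 counts or more, 1.19% were at least 2-fold apart and had TPM intervals without overlap, and 0 of the 10 members met both conditions. The members' median log2 ratio was -0.11, against -0.03 over all tested genes, with 3 members above 0 and 7 below. By TPM as deposited 5 were higher and 5 lower in replicate 2. All 10 lay inside the central 95% range of tested genes, from -0.67 to 0.61. Together the members held 0.552% of the gene counts in replicate 1 (Wilson 95% interval 0.549 to 0.554) and 0.556% in replicate 2 (0.553 to 0.558).

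Lipe had the ratio farthest from 0, at -0.46, or 1.37-fold lower in replicate 2. Npc2 followed at -0.30, Apoe at -0.24, Abca1 at -0.19 and Scarb1 at -0.16. On the other side lay Nceh1 at 0.21, Soat1 at 0.08 and Npc1 at 0.06. These 8 genes kept their sign under all 7 settings of scaling, pseudocount and table. Lipa, from -0.11 to 0.05, and Abcg1, from -0.09 to 0.47, changed sign. TPM as deposited moved the median of all tested genes up by 0.10 relative to TMM scaling.

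The deposited TPM intervals of the animals, which surround the posterior mean TPM and cover the error of estimation in a library, did not overlap for 8 of 10 members. Lipa and Abcg1 were the exceptions. The same held for 27.4% of all tested genes. That share covers genes from a mean of 100 counts up and was not matched for counts, while each member had 619 counts or more. It is therefore no measure of how unusual the members are. Intervals were apart at small ratios too, such as the log2 ratios of Soat1 (0.08) and Npc1 (0.06). With the intervals rescaled to TMM, those of Npc1 also overlapped, leaving 7.

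**Figure D4:**
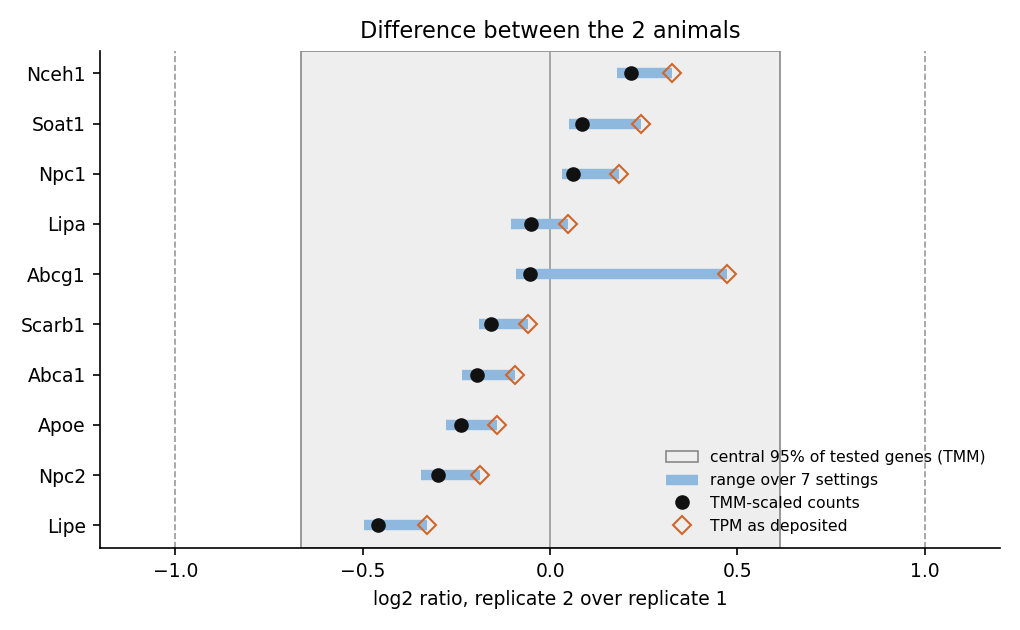
Log2 ratio of replicate 2 over replicate 1 for each gene: TMM-scaled counts (black points), TPM as deposited (open diamonds) and the range over 7 settings (blue bars). Grey marks the central 95% range of tested genes, -0.67 to 0.61, and dashed lines mark 2-fold. Lipe lies lowest at -0.46 and no gene reaches 2-fold.

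The difference in Lipe was not equal over its transcripts. Lipe-202 had a log2 ratio of -0.45 and Lipe-208 one of -0.83, while Lipe-201 had -0.24. In the index-based table these were -0.47, -0.79 and -0.30, in the same order. Markers of adipocytes, which also express Lipe, moved with it. After TMM scaling all 10 of 10 were lower in replicate 2, Lep only by -0.01, and by TPM as deposited 9 were lower and Lep was higher. Of these markers 7 were called 2-fold apart, with a median log2 ratio of -1.05 and a summed level of 1624 TPM in replicate 1 and 831 TPM in replicate 2. No marker was at 0: Adipoq, the adipokine gene, stood at 105 and 53.7 TPM, and Cidea, a droplet protein of brown fat, at 94.0 and 26.5 TPM. Their part in the level and the difference of Lipe was not tested. In whole tissue, fewer cells of a type and less RNA per cell cannot be told apart.

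The droplet list also differed between the animals. Of its 17 tested genes 16 were lower in replicate 2 and 1 higher, with a median log2 ratio of -0.56. At least 2-fold lower were 5: Cidea (-1.92), the carboxylesterase genes Ces1d (-1.64) and Ces1f (-1.47), and the droplet coat genes Plin4 (-1.16) and Plin5 (-1.14). Cidea is itself an adipocyte marker here, as is Plin1. Plin2 lay at -0.47 and Pnpla2 at -0.77. The adipocyte values given for Lipe apply to this list too, and their part in it was not tested. Among the members that esterify or hydrolyse, Soat1 (0.08) and Nceh1 (0.21) lay above 0 and Lipe below it, while Lipa (-0.05) changed sign between settings.

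The other lists lay closer to the tested genes as a whole. Lipoprotein uptake genes had 5 of 13 higher and 8 lower, with a median of -0.08. Lpl was 2.06-fold lower, and it is on the adipocyte list. Apob, a plasma lipoprotein gene of liver, was 3.35-fold higher from 102 and 310 counts. The 3 tested hepatocyte markers, Apob among them, were all 2-fold or more higher in replicate 2, with a summed level over the list of 8.31 and 28.6 TPM. Their part in the value of Apob was not tested. Sterol export genes had 5 of 16 higher and 11 lower, with a median of -0.12. Efflux genes had 7 of 19 higher and 12 lower, with a median of -0.14. By TPM as deposited these counts were 7 and 9 for sterol export, and for efflux they turned to 11 higher and 8 lower. Neither held a gene called 2-fold apart.

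Macrophage markers bear on Abca1, Abcg1, Apoe and Lipa, which macrophages also express. After TMM scaling 9 of 10 were lower and 1 higher in replicate 2, and by TPM as deposited 7 were lower and 3 higher. Their median log2 ratio was -0.14, with a summed level of 177 and 163 TPM and none at 0. Cd68 stood at 6.73 and 7.01 TPM and Adgre1 at 2.60 and 3.69 TPM, and Cd163 was 3.60-fold lower. The part of macrophages in the levels of those 4 members, or of any other member, was not tested. Cortex markers were high, as the labelled tissue calls for, with Star, which carries cholesterol into mitochondria, at 5984 ± 473 TPM and the steroidogenic factor Nr5a1 at 254 ± 6.02 TPM. Their summed level was 26623 and 27660 TPM. After TMM scaling 4 of 9 were higher and 5 lower, with a median of -0.08, and by TPM 5 were higher and 4 lower. All 8 chromaffin markers were lower in replicate 2 by TMM scaling and by TPM, with a median of -0.24. All 6 endothelial markers were lower after TMM scaling, with a median of -0.13, and by TPM 5 were lower and Pecam1 higher.

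Among member transcripts with a mean of 100 counts or more, those that differed most between the animals were retained-intron transcripts of Scarb1. Scarb1-207 had 78.0 counts in replicate 1 and 1474 in replicate 2, a 20.8-fold difference after scaling, and 20.7-fold in the index-based table. Its deposited TPM intervals were 0.506 to 0.828 and 13.8 to 15.4. It ranked 2nd in this ratio among 1868 retained-intron transcripts with a mean of 100 counts or more. Its mean passed 100 counts only through replicate 2, and it was chosen after its values were seen. The rank is therefore no measure of how unusual it is. Scarb1-209 had 627 and 1915 counts, or 3.37-fold, and 8.30-fold in the index-based table. Over the whole gene, transcripts of this class took 0.983% of Scarb1 counts in replicate 1 and 5.44% in replicate 2, while the complete coding transcripts had 79152 and 61251 counts.

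Both transcripts contain intron sequence from the 3′ part of the gene, where the receptor forms part. Scarb1-207 holds 1945 of the 2626 bases of intron 9 of Scarb1-201 (chromosome 5, 125284733 to 125287358) and 949 of the 2665 bases of intron 11 (125281234 to 125283898). Scarb1-209 holds 544 bases of intron 11, all of which are also in Scarb1-207, and it has 0 bases that no other Scarb1 transcript holds. Intron 11 lies directly ahead of the 129-base exon that Scarb1-202 skips.

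The class as a whole was higher in replicate 2, so its shares are given beside those of the members. Of the 1868 retained-intron transcripts, 10.3% were at least 2-fold higher in replicate 2, and 3 of the 10 member transcripts tested were. All 10 lay above 0, against 73.8% of the class. The class median was a log2 ratio of 0.35, and that of coding transcripts was -0.06. The third transcript past 2-fold, Soat1-205, had 199 and 409 counts, or 2.27-fold, but 1.15-fold in the index-based table, and it shares 37 bases with intron 12 of Soat1-201. The index-based table had 9 of the 10 higher and 3 by 2-fold or more. Scarb1-207 and Scarb1-209, which share the intron 11 sequence and are not separate observations of it, alone passed 2-fold in both tables. In the alignment-based table the other 7 lay between 1.17-fold for Soat1-203 and 1.39-fold for Npc2-203. In the index-based table they ran from 0.954-fold for Lipa-205 to 2.94-fold for Nceh1-203, which had 15.7 and 43.6 counts there.

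**Figure D5:**
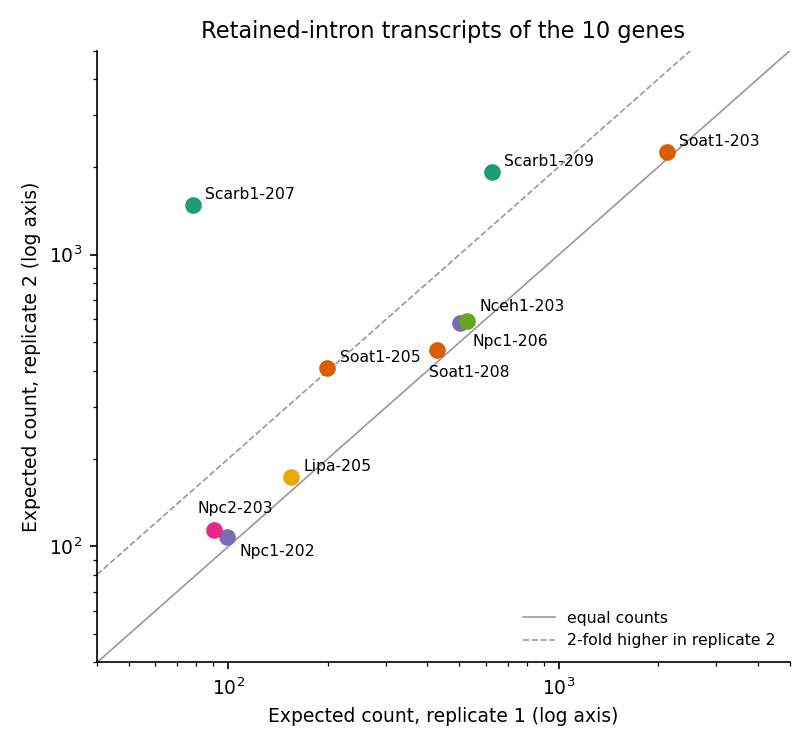
Expected counts of the 10 tested retained-intron transcripts in replicate 1 (x) and replicate 2 (y), both on log axes and without scaling, coloured by gene. The solid line marks equal counts and the dashed line 2-fold. Scarb1-207 lies farthest above both lines, at 78.0 and 1474 counts.

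The libraries held 40362215 and 34235680 expected counts in genes, and each member rested on 619 counts or more. The files of the libraries do not agree within sampling noise: a chi-square over the tested genes gave 45.2 for each degree of freedom. That they came from separate animals is known from the labels alone.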

How the data were processed

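Both libraries were made from total RNA of adrenal tissue, and ERCC spike-ins were added before sequencing, per the labels. The library kit's link names a directional kit. The authors deposited, per library, a gene and a transcript table from alignments and a transcript table from an index. Per the file headers the authors deposited expected counts, estimates without normalization. TPM as deposited was scaled over all features, tRNAs and spike-ins included. The deposited TPM bounds belong to the posterior mean and can exclude the TPM itself. The build was mm10 with GENCODE M21. Programs, and the treatment of reads with CAST alleles, are not given in the sources. A strain difference from the reference could change counts of single exons or transcripts.

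TMM factors came from edgeR 4.0.16 (R 4.3.3) on rounded expected counts, and DESeq2 1.42.0 size factors, total counts, spike-ins, TPM and the index-based table were alternatives. Ratios have a pseudocount of 0.5, and no p-value was computed because each side is 1 library. A gene was called apart at 2-fold or more, a mean of 100 counts or more and TPM intervals that did not overlap. Scaling was also run on simulated gene counts with known changes. TPM intervals and transcript levels were not simulated, so the steps that use them were not tested in this way. Wilson intervals cover counting error only.

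Members and lists were chosen with earlier results of these data known. Of each list the 3 highest genes, those called apart and fixed genes were named, 1 of which is not reported here, and of each member the top transcripts and those with 10% of TPM in both animals of a table. Scarb1-202, Scarb1-207, Scarb1-209, Lipe-204 and the retained-intron comparison were chosen after their values were seen. Other steps ran in Python 3.11.15 (pandas 2.3.3, numpy 2.4.6, matplotlib 3.10.9, scipy 1.17.1).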

Additional observations from a re-analysis of the deposited data

How the results depend on the processing

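The count of members at 10 TPM or more in both animals was 9, and at a threshold of 100 TPM it was 4. The other alternatives left within 1.5-fold the counts of members at 10 TPM, 2-fold apart, with intervals apart and with the same main transcript in both tables. No member's ratio was called, and only Lipa and Abcg1 changed sign, both under total counts and under TPM as deposited. Between tables Nceh1 moved most as a fold, from 118 ± 18.8 TPM to 76.5 TPM, and Scarb1 most in TPM, from 843 ± 24.5 to 1099 TPM. Of the members depth limits Abcg1 most, at 710 and 619 counts, and named transcripts such as Abcg1-204, at 24.4 and 65.5 counts, and Lipe-204, at 0 and 7.99, rest on fewer. No paired analysis was possible because both libraries belong to 1 group.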
